A study of Oryza sativa and Triticum aestivum and Oryza sativa Japonica Group with 26 samples.

Results

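Rice grain size is set largely by how often and how far the cells of the spikelet hull divide and expand in the young panicle, before the grain fills. Several quantitative trait loci and dwarf mutants have given genes that either enlarge the hull (positive regulators) or restrict it (negative regulators). They act in ubiquitin-dependent protein turnover, heterotrimeric G protein signalling, transcription and brassinosteroid signalling. The set described here holds 7 such genes chosen by gene ID: the positive regulators GS5, GW8 (OsSPL16), GS2 (OsGRF4) and RGA1 (D1), and the negative regulators GW2, GW5 and GS3. The pairing of names with IDs came with the definition of the set, since the count table lists IDs alone. Of the 7 IDs, 6 had a row among the 55986 gene IDs of the table. The ID given for GS3, LOC_Os03g29380, had none, and GS3 was not analysed here. Whether another ID of the table stands for the same gene was not determined.

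The RNA came from young panicles of JZ1560, a japonica rice cultivar grown in the field, and was read as 101 bp paired reads in 1 library. The labels give no panicle length or stage beyond young. This was the only RNA library of the series, which has none of the indica cultivar HHZ. The genes were therefore described in 1 cultivar with no replicate check and no test. The library held 7169403 counts assigned to gene IDs, so 1 count equals 0.139 CPM, the usual unit in which the gene counts of a library are scaled to sum to 1000000. For a count of 0 a fixed floor of 3 counts, or 0.418 CPM, was set, which is not 1 of the intervals below. Intervals below are exact 95% Poisson intervals and cover counting error only, not the spread between plants or libraries. Counts grow with transcript length as well as with RNA level, and no transcript lengths for these IDs were used here. Order and rank therefore describe read counts, not RNA molecules per gene.

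All 6 genes with a row had reads, as did 49514 of all 55986 IDs. Of the 6, 5 were above the library's median gene ID, as were 49.1% of all IDs. GW2 and RGA1 had the highest counts (32.6 and 31.1 CPM), followed by GS5 (16.0 CPM), then GS2 and GW8 (8.65 and 8.51 CPM). GW5, at 0.837 CPM, was the 1 gene below the median. The median of all gene IDs was 9 counts (1.26 CPM), the 75th percentile 77 counts (10.7 CPM) and the 90th percentile 330 counts (46.0 CPM). GW2, RGA1 and GS5 were above the 75th percentile and none of the 6 reached the 90th. These places depend on the many IDs with few counts. Of the IDs with at least 10 counts, 45.0% had fewer counts than GS2 and 44.7% fewer than GW8. Both genes were thus below the median of those IDs.

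**Figure D1:**
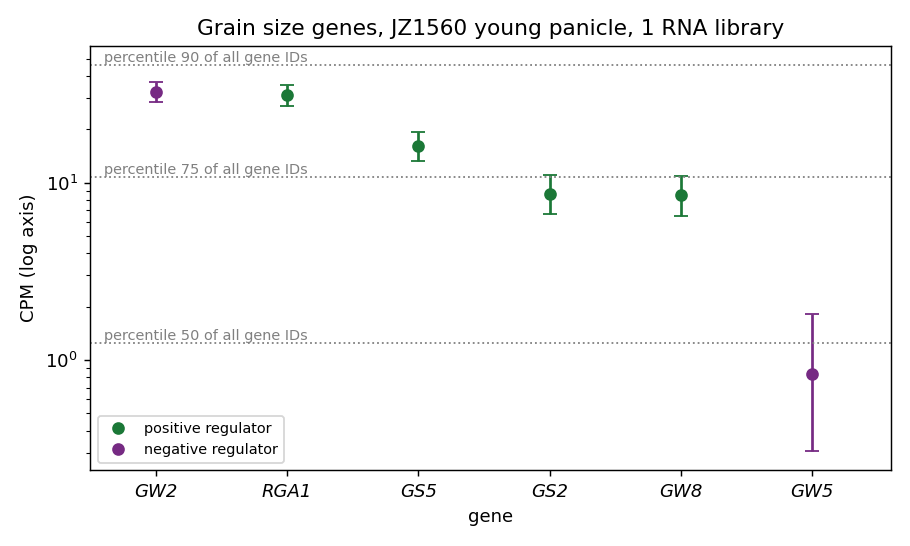
CPM (log axis) of the 6 grain size genes in the JZ1560 RNA library, with exact 95% Poisson intervals as bars and positive and negative regulators in 2 colours. Dotted lines mark the 50th, 75th and 90th percentiles of all gene IDs. GW2, RGA1 and GS5 lie between the upper 2 lines, and the interval of GW5 (0.307 to 1.82 CPM) spans the median line at 1.26 CPM.

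GW2 encodes a RING-type E3 ubiquitin ligase, and loss of its function gives wider grains. Its ID, LOC_Os02g14720 on chromosome 2, had 234 counts, or 32.6 CPM (95% interval 28.6 to 37.1). Sorted by count it took ranks 7516 to 7542 of all gene IDs, a range shared with 26 other IDs of the same count, and 86.5% of the IDs had fewer counts.

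RGA1, the gene of the dwarf mutant d1, encodes the alpha subunit of the heterotrimeric G protein, and its loss gives short plants with small round grains. LOC_Os05g26890 on chromosome 5 had 223 counts, or 31.1 CPM (27.2 to 35.5). It took ranks 7804 to 7822, with 86.0% of the IDs below it. The GW2 count was 1.05 times the RGA1 count with an exact 95% interval of 0.870 to 1.27, so the order of these 2 counts was not resolved at this depth. GS3, which encodes an atypical gamma subunit of the same G protein and restricts grain length, is the member without a row. Within this set the G protein branch was therefore described by its alpha subunit alone.

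GS5 encodes a putative serine carboxypeptidase, and higher activity of the gene goes with wider grains. LOC_Os05g06660 on chromosome 5 had 115 counts, or 16.0 CPM (13.2 to 19.3), at ranks 11674 to 11726, with 79.1% of the IDs below it. The RGA1 count was 1.94 times that of GS5 (1.54 to 2.45), and the GS5 count was 1.85 times that of GS2 (1.35 to 2.57). Both gaps were larger than the counting error, with transcript length not taken into account.

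The set has 2 transcription factors, and they had almost the same count. GS2 encodes OsGRF4, a growth-regulating factor that is a target of the microRNA miR396, and LOC_Os02g47280 on chromosome 2 had 62 counts, or 8.65 CPM (6.63 to 11.1). GW8 encodes OsSPL16, an SBP-domain factor that promotes cell division in the hull, and LOC_Os08g41940 on chromosome 8 had 61 counts, or 8.51 CPM (6.51 to 10.9). GS2 was at ranks 15048 to 15133 and GW8 at ranks 15134 to 15217, next to each other in the whole table, with 73.0% and 72.8% of the IDs below them. The ratio of the counts was 1.02 (0.702 to 1.47). OsGRF4 and OsSPL16 belong to gene families with related sequences, and how reads that fit several genes were counted is not given in the sources used here.

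GW5 encodes a calmodulin-binding protein that acts in brassinosteroid signalling, and reduced activity of the gene goes with wide grains. LOC_Os05g09520 on chromosome 5 had 6 counts (exact interval 2.20 to 13.1), or 0.837 CPM (0.307 to 1.82). Its ranks ran from 31594 to 33445, a range shared with 1851 other IDs, and 40.3% of the IDs had fewer counts. The interval of its count reaches from 26.0% to 56.8% of the IDs on that scale. The GW8 count, the next one up, was 10.2 times higher (4.41 to 28.8). Counts this low were common in the library, since 41.2% of all gene IDs had 1 to 10 counts and 11.6% had 0. A count of 6 therefore placed GW5 among the many IDs with few reads, and in RNA from a whole panicle, fewer cells with the transcript and less transcript per cell cannot be told apart.

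**Figure D2:**
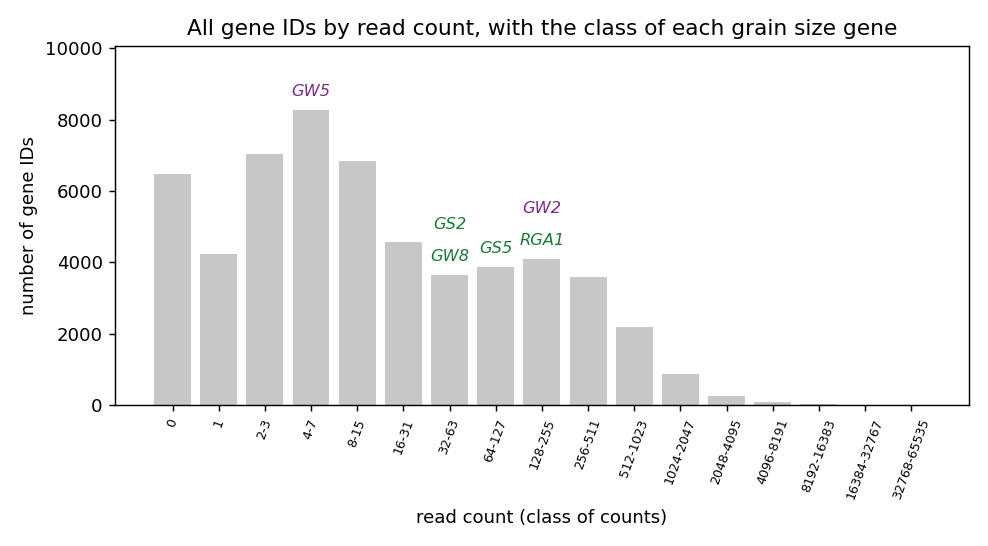
Number of gene IDs (vertical axis) in classes of read count that double in width (horizontal axis), with each grain size gene written over the bar of its class. GW5 falls in the fullest class, 4 to 7 counts with 8264 IDs, GS2 and GW8 in 32 to 63, GS5 in 64 to 127, and RGA1 and GW2 in 128 to 255.

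Positive and negative regulators did not separate by count. The 4 positive regulators ranged from 61 to 223 counts (8.51 to 31.1 CPM), and all of them lay between the 2 negative regulators with a row, GW5 at 6 counts and GW2 at 234. The positive regulators summed to 461 counts, or 64.3 CPM (58.6 to 70.4), and the negative ones to 240 counts, or 33.5 CPM (29.4 to 38.0). Positive regulators thus made up 65.8% of the summed count (exact 95% binomial interval 62.1% to 69.3%), with 4 genes against 2. Per gene the means were 16.1 CPM for the positive and 16.7 CPM for the negative regulators. The median share of IDs with fewer counts was 76.0% for positive and 63.4% for negative regulators, a difference of 12.6 percentage points. With 2 negative regulators either one sets these values: the difference was -10.5 without GW5 and 35.8 without GW2, and the positive share of the summed count was 98.7% without GW2. Among the positive regulators RGA1 weighed most on that share, which was 49.8% without it. The third negative regulator, GS3, is missing from each of these values, and genes of a direction are not replicates of it.

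Gene IDs next to the 6 genes in ID order, which follows the chromosome, varied widely in count. For scale, in the whole table GW2 exceeded 86.5% of IDs, RGA1 86.0%, GS5 79.1%, GS2 73.0%, GW8 72.8% and GW5 40.3%. RGA1 exceeded all 10 neighbours taken (5 on each side), which ranged from 0 to 198 counts with a median of 6. GW2 exceeded 8 of 10, with a neighbour median of 7.5 counts, and the ID that follows it had 1550. GS2 also exceeded 8 of 10, with a neighbour median of 5.5 counts and a range of 0 to 379.

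GS5, GW8 and GW5 each exceeded 3 of their 10 neighbours. The neighbours of GS5 had a median of 229 counts and a highest value of 1436, and those of GW8 a median of 169 and a highest value of 1765. Around GW5 the median was 15.5 counts, and its direct neighbours had 2 and 12 counts, while another ID within the 5 before it had 922. Whether the counting used the strand is not given in the sources used here, so reads from overlapping genes on opposite strands cannot be told apart.

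**Figure D3:**
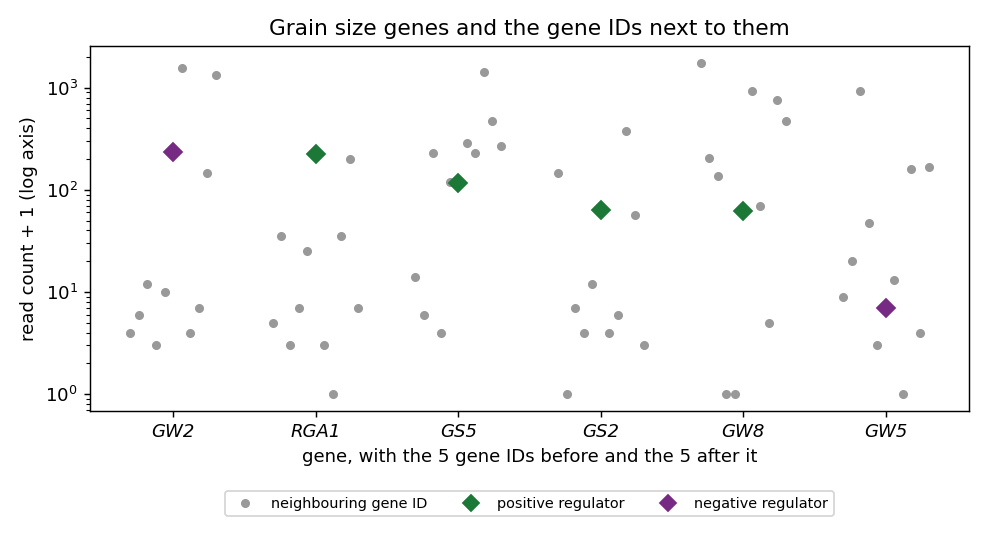
Read count plus 1 (log axis) of each grain size gene (diamonds) and of the 5 gene IDs before and the 5 after it in ID order (grey points, left to right). RGA1 lies above all of its neighbours, GW2 and GS2 above 8 of 10, and GS5, GW8 and GW5 above 3 of 10.

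Ranked among the IDs of their own chromosomes, the genes took partly different places. Chromosome 5 carries 3 of them, and of its 4572 IDs 85.4% had fewer counts than RGA1, 78.8% fewer than GS5 and 39.5% fewer than GW5. On chromosome 2, 82.6% of 5377 IDs had fewer counts than GW2 and 65.9% fewer than GS2. On chromosome 8, 76.2% of 4188 IDs had fewer counts than GW8. By these shares RGA1 stood above GW2 and GW8 above GS2, the reverse of their order in the whole table. Neither order in the whole table was resolved at this depth, and the shares within a chromosome were given without intervals.

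A list of other rice grain size genes had a higher median count than the 6 genes. That list of 19 IDs was drawn from general knowledge of the field, with earlier results of these data known, so it is not an independent standard. No source used here annotates its IDs, and none is therefore named. All 19 had a row and none was at 0, with a range of 2 to 1550 counts. Their median was 304 counts (42.4 CPM), against 88.5 counts (12.3 CPM) for the 6 genes and 9 for all IDs. The list includes the ID numbered next after GW2, and the list's highest count, 1550, was also that of the neighbour following GW2. Of the 19, 10 had more counts than GW2 and 2 had fewer than GW5. Of all 55986 IDs, 7515 had more than GW2 and 22541 fewer than GW5. Above the 90th percentile of all IDs were 9 of the 19 and 0 of the 6, and above the 75th 13 of the 19 and 3 of the 6, where the whole table had 24.9%. These counts describe the lists without correction for length.

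The young panicle label was set against 3 marker lists of the same kind, also unnamed. They too were chosen with earlier results of these data known, so they are no independent check of the label. All 13 IDs held to be floral MADS-box genes were above the 75th percentile, from 173 to 2725 counts (24.1 to 380.1 CPM), and 12 of them exceeded GW2. The 5 IDs held to be storage protein and starch genes of the filling grain ranged from 0 to 46 counts with a median of 36, and summed to 17.4 CPM. Of these 5, 1 was at 0, 3 were above the median of all IDs and 0 above the 75th percentile. The 4 IDs held to be photosynthesis genes had 659 to 4288 counts (91.9 to 598.1 CPM) and summed to 1023 CPM, and their part in the counts of the grain size genes was not tested.

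Histone mark peaks at these genes were not analysed here. The 20 rice peak lists of JZ1560 and HHZ give positions, but no positions of the 7 IDs on the coordinates of those lists were used.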

How the data were processed

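The values are read counts per gene ID, which the authors deposited as whole numbers in the layout of HTSeq output for the JZ1560 panicle RNA library. HTSeq, TopHat2, BWA and FastQC are listed in the submitters' processing notes, with no version and no step named. Which build, annotation and strand setting they used is not given in the sources used here. Reads of no feature made up 26.1% and ambiguous reads 2.97% of all counts and did not enter the CPM total. The row for reads aligned to several places was 0, so such reads cannot be followed in the file.

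CPM, ranks with ties and exact intervals (Poisson for counts, Clopper-Pearson for shares, 95%) were computed in Python 3.11.15 with scipy 1.17.1, and the functions were checked on simulated counts. The RefSeq gene table (assembly ASM3414082v1) held 0 of the table's gene IDs, so no names, lengths, positions or sequences came from it, and 23 peak lists were not used. All 7 genes were to be named, without regard to their values. The genes, their directions and the lists were chosen with earlier results of these data known. Replication was 1 library, so no test was run.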

Additional observations from a re-analysis of the deposited data

How the results depend on the processing

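Ranks from the top do not depend on low-count IDs, but shares of IDs below a gene do. Among IDs with at least 1 count the shares were 84.8% for GW2, 84.2% for RGA1, 76.3% for GS5, 69.4% for GS2, 69.3% for GW8 and 32.5% for GW5. Among IDs with at least 10 counts they were 72.6%, 71.6%, 57.4%, 45.0% and 44.7%, and GW5 drops out. With unassigned and ambiguous reads in the total, CPM was 23.2 for GW2, 22.1 for RGA1, 11.4 for GS5, 6.14 for GS2 and 6.04 for GW8. Without the 100 highest IDs the CPM of GW2 was 37.2, just over the upper limit of its interval, 37.1. The other 5 genes stayed inside their counting intervals, RGA1 narrowly (35.4 against a limit of 35.5). A changed total scales the CPM of all genes by the same factor. Whether a gene leaves its interval therefore follows from the size of its count.

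The positive share of the summed count was 98.7% without GW2, 49.8% without RGA1 and 59.0% without GS5. The difference in median share of IDs below, positive minus negative, was 35.8 percentage points without GW2 and -10.5 without GW5. Counts per kb and the peak alternatives were not run, because no lengths or positions for these IDs were used. No paired analysis was possible because there was 1 RNA library. Depth left the order of GW2 and RGA1, and that of GS2 and GW8, unresolved, and gave GW5 the widest interval relative to its count.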
